A study of Mus musculus with 21 samples.

Results

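Laminins, nidogens, perlecan and Sparc were followed as a group of 10 genes in epididymal white adipose tissue, the fat depot beside the epididymis. The genes were taken by symbol from the deposited table: the laminin alpha chains Lama2, Lama4 and Lama5, the beta chains Lamb1 and Lamb2, the gamma chain Lamc1, the nidogens Nid1 and Nid2, the perlecan core protein Hspg2, and Sparc. They are 10 of the 38087 genes in that table, and all 10 passed the filter on low counts that left 18334 genes. The tissue came from male C57BL/6j mice aged 15 to 16 weeks, fed ad libitum, that were either germ-free, living without microbes, or conventionally raised with a gut microbiota. Total RNA was sequenced in 9 germ-free libraries, 2 each at zeitgeber times (ZT, hours after lights on) 6, 10 and 22 and 1 each at ZT02, ZT14 and ZT18, and in 12 conventional libraries, 2 at each of the 6 times. Total counts per library ranged from 24388294 to 48348181. Whether the libraries are separate mice is not in the labels, so the p-values cover only the spread among these libraries, which may be technical.

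A basement membrane is a thin sheet of matrix that surrounds each adipocyte and underlies the endothelium of capillaries. Laminins are trimers of an alpha, a beta and a gamma chain that assemble into a network on the cell surface, where integrins and dystroglycan bind them. A second network is made of type IV collagen, nidogens and perlecan link the networks, and the heparan sulfate chains of perlecan hold growth factors. Sparc, also called osteonectin, is a secreted protein that binds collagen and takes part in its assembly.

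The adipocyte markers were checked first. Adipoq, the adipocyte hormone adiponectin, stood at 2969 ± 325 CPM (counts scaled to a common library size by the trimmed mean of M values; SD, n = 9) in germ-free and 3053 ± 489 CPM (SD, n = 12) in conventional libraries. Of 7 adipocyte markers 1 was lower in germ-free mice, the hormone gene Lep (log2 fold change -0.67 ± 0.18, SE, edgeR adjusted p = 0.0117), and 1 was higher, the fatty acid carrier Fabp4 (0.36 ± 0.10, edgeR adjusted p = 0.0119). Markers of ciliated duct, epididymis or accessory gland cells summed to more than 5 times their median in 9 libraries, 4 germ-free and 5 conventional. The medians of the accessory gland sum were low, 0.279 CPM in germ-free and 0.436 CPM in conventional libraries. Germ-free ZT14, replicate 2, exceeded only that list's cut, at 4.06 CPM, and so did conventional ZT18, replicate 1, at 17.3 CPM. Endothelial markers summed to between 694 and 1012 CPM in germ-free and 644 and 1026 CPM in conventional libraries, and of the 8 markers 4 were higher in germ-free mice and 1 was lower. The mural cell and smooth muscle markers summed to between 678 and 1323 CPM in germ-free and 712 and 1010 CPM in conventional libraries, with 2 of 8 lower, Notch3 (-0.96 ± 0.13) and Pdgfrb (-0.46 ± 0.09). Kdr, a growth factor receptor of endothelium, was higher (0.65 ± 0.09), and Vwf, von Willebrand factor, was lower (-1.03 ± 0.18). Mesothelial markers summed to between 220.2 and 611 CPM in germ-free and 258 and 499.9 CPM in conventional libraries, with a list median log2 fold change of -0.25 and 1 of 6 lower, Wt1 (-0.46 ± 0.07, edgeR adjusted p = 5.34e-04). Fibroblast and progenitor markers summed to between 1909 and 2524 CPM in germ-free and 1553 and 2506 CPM in conventional libraries. Of 7 such markers 1 was lower. Over all genes tested, 11.6% were lower and 15.3% higher in germ-free mice by edgeR. Marker fold changes are from the fit without the exon length offset described below. Exon length was 637 bases for Fabp4, 7278 for Kdr and 16064 for Vwf. No marker of these lists was at 0 throughout, and the part of the markers in the results below was not tested.

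Basement membrane transcripts were lower in germ-free fat for 7 of the 10 genes, and 0 were higher by edgeR's quasi-likelihood test (adjusted p under 0.05), by DESeq2 or at an unadjusted p under 0.05. Over all 18334 genes, 11.6% were lower and 15.3% higher in germ-free mice by edgeR, and 13.4% and 15.8% by DESeq2. The median log2 fold change, germ-free over conventional, was -0.27 for the 10 genes and 0.03 for all genes tested. Perlecan had the lowest value, Lamb2, Nid1, Sparc and Lamc1 followed, and Lama2 and Nid2 had smaller differences that passed. Lama4, Lama5 and Lamb1 did not pass. For no member did the arms fully separate, a pattern that 0.371% of all genes showed with germ-free libraries below conventional ones. In bulk tissue, fewer cells of a type and less RNA per cell cannot be told apart.

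**Figure D1:**
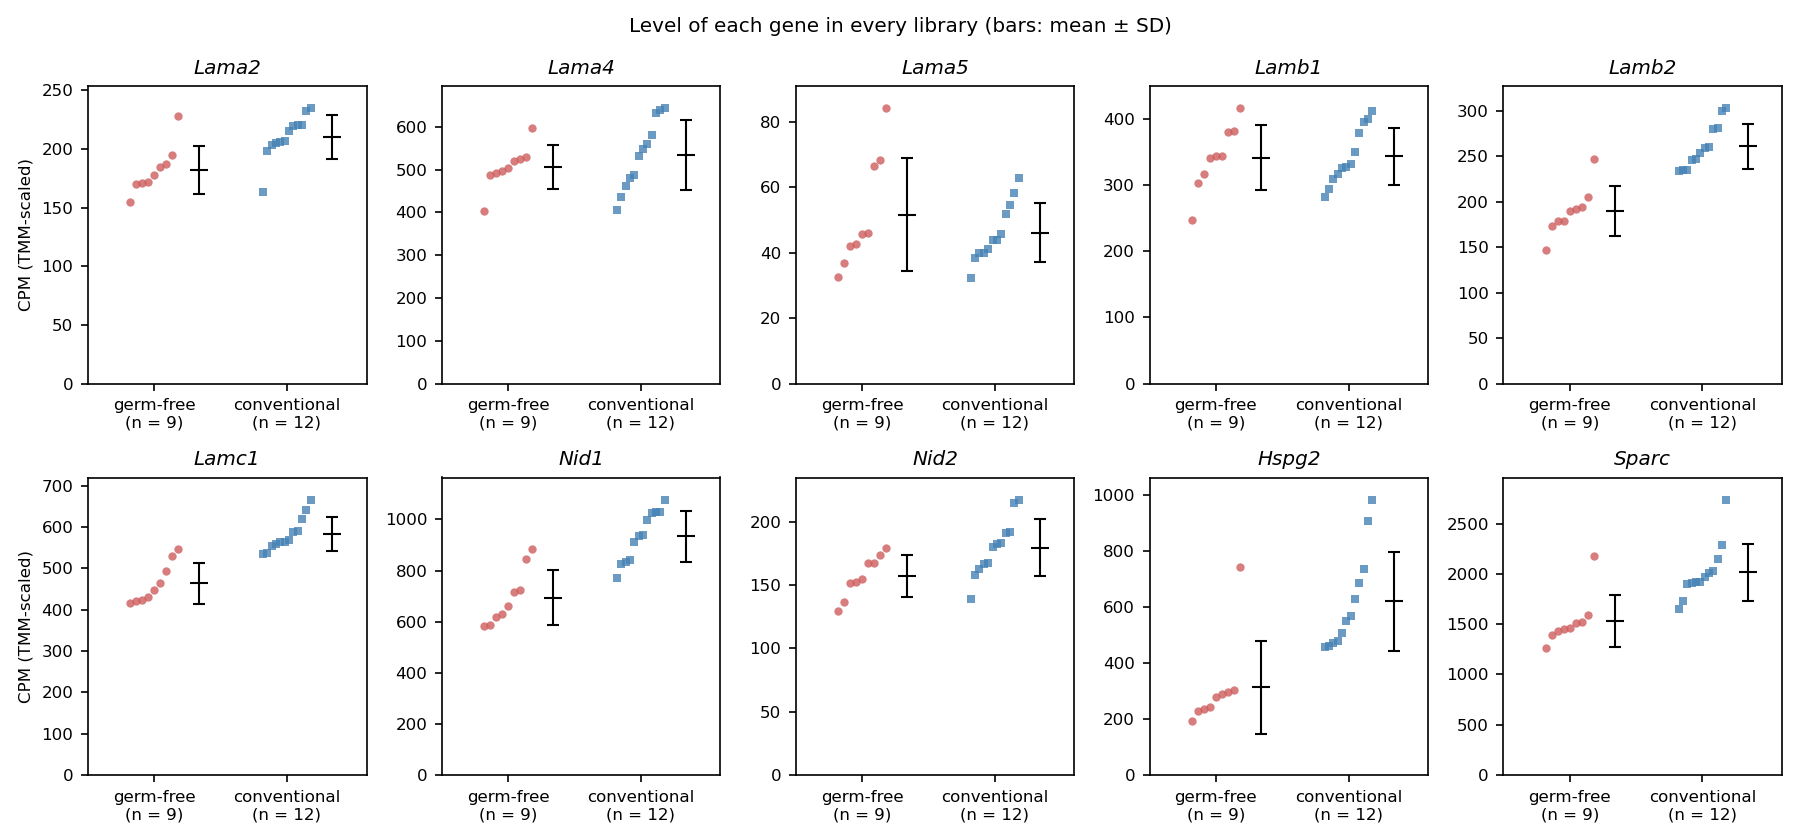
Level of each gene in CPM, with germ-free libraries (circles, n = 9) left and conventional ones (squares, n = 12) right, each sorted by value and with the mean and SD beside it. For Lamb2, Lamc1, Hspg2 and Sparc 8 of 9 germ-free libraries lie below the lowest conventional one, whereas for Lama5 and Lamb1 the arms overlap widely.

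Alpha chains carry most of the sites that cells bind, and of the 3 in the group Lama2 alone passed the test. This chain of laminin-211, best known from muscle and nerve, had a lowest, median and highest value of 155, 178 and 228 CPM in germ-free libraries and of 163, 211 and 235 CPM in conventional ones. The ranges overlapped almost entirely, with 1 germ-free library below the lowest conventional one. The log2 fold change was -0.22 ± 0.07 (SE, edgeR adjusted p = 0.0221). With an offset for exon length, described below, it was -0.11 ± 0.06 (edgeR adjusted p = 0.221), and the call was lost.

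Lama4 is the alpha chain of laminins around capillaries and adipocytes. Its lowest, median and highest values were 404, 504 and 597 CPM in germ-free and 406, 540 and 644 CPM in conventional libraries. The log2 fold change of -0.08 ± 0.08 did not pass (edgeR adjusted p = 0.528), and with the exon length offset its sign was positive, at 0.06 ± 0.09. The highest germ-free value stood at ZT02, where the single germ-free library had 597 CPM against a conventional mean of 421 CPM. At ZT22 the order was the opposite, at 446 CPM in germ-free and 596 CPM in conventional mice.

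Lama5, the alpha chain of epithelial and mature vascular laminins, had the fewest reads of the group. It ranged from 32.4 over a median of 45.8 to 84.2 CPM in germ-free libraries and from 32.2 over 43.9 to 62.9 CPM in conventional ones. Its log2 fold change of 0.19 ± 0.17 did not pass (edgeR adjusted p = 0.444). The highest germ-free value came from ZT22, replicate 1, the library that also had the highest sum of ciliated duct markers, 677 CPM.

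The 2 beta chains differed from each other. Lamb2, found in vascular and neuromuscular basement membranes, stood at 146, 190.0 and 247 CPM (lowest, median and highest) in germ-free libraries and at 234, 256 and 303 CPM in conventional ones. In 8 of 9 germ-free libraries it lay below every conventional library, and the exception was ZT10, replicate 2. On the log2 scale the fold change was -0.45 ± 0.07 (SE, edgeR adjusted p = 4.83e-04). Lamb1, the widely expressed beta chain, stood at 247, 344 and 417 CPM in germ-free and 283, 330.5 and 412 CPM in conventional libraries. Its ranges overlapped almost completely, and the log2 fold change of 0.01 ± 0.07 did not pass (edgeR adjusted p = 0.969). That value was -0.001 with RLE size factors, so no direction is given for Lamb1.

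The ratio of the 2 beta chains, taken within each library per kilobase of exon, changed accordingly. The log2 ratio of Lamb2 over Lamb1 averaged -0.03 ± 0.11 (SD, n = 9) in germ-free and 0.42 ± 0.20 (SD, n = 12) in conventional libraries. It ran from -0.17 to 0.14 in germ-free and from 0.07 to 0.70 in conventional libraries. The difference of -0.46 had a 2-sided exact permutation p of 1.71e-04 over all 5832 relabellings within times, the smallest they can give (adjusted p = 6.86e-04 over 4 ratios). Lamb2 made up 49.0% ± 1.88 of beta chain reads per kilobase in germ-free and 56.6% ± 3.34 in conventional mice. In libraries numbered 2 alone the difference was -0.55 (exact permutation p = 0.0313, the smallest that 64 relabellings can give; adjusted p = 0.125).

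Beside the beta chains, the promoters of a chain that passed and of its paralog that did not are shown, as 300 bases (250 before the start and 50 after) from RefSeq on GRCm38.p6. Capitals mark the GC box GGGCGG or its reverse complement CCGCCC.
Lamb2 promoter, chr9:108479612-108479911, plus strand: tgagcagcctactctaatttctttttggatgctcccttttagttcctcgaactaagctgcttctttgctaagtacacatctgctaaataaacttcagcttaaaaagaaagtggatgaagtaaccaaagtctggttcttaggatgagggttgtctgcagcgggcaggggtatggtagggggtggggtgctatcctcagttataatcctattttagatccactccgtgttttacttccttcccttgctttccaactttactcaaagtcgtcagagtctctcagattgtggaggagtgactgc
Lamb1 promoter, chr12:31265043-31265342, plus strand: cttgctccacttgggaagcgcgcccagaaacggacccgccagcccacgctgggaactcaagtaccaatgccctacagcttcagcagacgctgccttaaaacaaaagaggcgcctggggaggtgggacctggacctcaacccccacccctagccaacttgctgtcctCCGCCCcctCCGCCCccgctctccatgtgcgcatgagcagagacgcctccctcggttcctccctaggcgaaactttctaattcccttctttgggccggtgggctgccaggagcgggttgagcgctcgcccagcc
The Lamb2 window held 0 GC boxes at 44% GC, and the Lamb1 window held 2, on the minus strand at positions -84 and -75 from the start, at 63.7% GC. Promoters were matched for 7 of the 10 genes. The RefSeq starts behind the Lama2 and Sparc windows lie 2816 and 3103 bases from the GENCODE M21 start of the gene. Of the 7 windows 5 held a GC box, as did 35.9% of 32544 promoters. On both strands, the TATA box TATAAA (13.6% of promoters), the E-box CACGTG (7.17%), which clock proteins bind, the AP-1 site TGANTCA (7.79%) and the RORE core AGGTCA (16.2%) were in none of the 7. The CCAAT box CCAAT was in 2 of 7 and in 37.4% of all promoters. These are matches of letters only.

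Lamc1, the gamma chain of most laminins, was lower in germ-free fat. Its lowest, median and highest values were 416, 449 and 547 CPM in germ-free and 535, 566 and 667 CPM in conventional libraries. Only the germ-free library at ZT10, replicate 2, reached into the conventional range. The log2 fold change was -0.32 ± 0.06 (SE, edgeR adjusted p = 9.06e-04), and -0.21 ± 0.05 with the exon length offset (edgeR adjusted p = 0.00873).

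Summed per kilobase, the 5 alpha chains stood at 67.3 ± 4.14 CPM in germ-free and 71.6 ± 6.20 CPM in conventional libraries. The 3 beta chains summed to 68.8 ± 9.53 CPM per kilobase in germ-free and 82.0 ± 6.82 in conventional libraries. These sums are descriptions, and were not tested. Within the alpha class, Lama4 made up 62.3% ± 4.77 in germ-free and 61.5% ± 4.61 in conventional mice. Lama2 made up 27.7% ± 2.58 in germ-free and 30.2% ± 3.49 in conventional mice, and Lama5 6.75% ± 2.30 in germ-free and 5.73% ± 1.45 in conventional mice. The log2 ratio of Lama2 over Lama4 differed by -0.14 (exact permutation p = 0.249, adjusted p = 0.332) and that of Lama5 over Lama4 by 0.19 (exact permutation p = 0.421, adjusted p = 0.421). Neither passed, which does not show that the makeup of the alpha chains was alike.

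Nid1, the main nidogen, joins the laminin gamma chain to type IV collagen and perlecan. It stood at 582, 659.6 and 884 CPM (lowest, median and highest) in germ-free libraries and at 770.1, 936 and 1078 CPM in conventional ones, and 7 of 9 germ-free libraries lay below every conventional one. The exceptions were ZT02, replicate 2, and ZT10, replicate 2. Its log2 fold change was -0.41 ± 0.08 (SE, edgeR adjusted p = 0.00206).

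Nid2, its paralog, had the smallest difference that passed. It stood at 129, 155 and 179 CPM in germ-free and 139, 181 and 218 CPM in conventional libraries, and only 2 germ-free libraries lay below the conventional range. Its log2 fold change of -0.19 ± 0.06 (edgeR adjusted p = 0.0294) was no longer called when 1 of 5 libraries was left out (edgeR adjusted p at most 0.0725): conventional ZT10, replicate 1, conventional ZT06, replicate 2, and germ-free ZT10, replicate 1, ZT06, replicate 2, and ZT14, replicate 2. With the exon length offset it was -0.17 ± 0.06 (edgeR adjusted p = 0.0603), and with no filter on low counts -0.20 ± 0.06 (edgeR adjusted p = 0.0505). Without the filter 6 of the 10 genes were lower, beside 5.50% of all genes lower and 6.41% higher. In the GENCODE M21 annotation, 437 exon bases of Nid2 are shared with Rtraf on the opposite strand, which averaged 74.0 CPM. Whether counting used strand is not given in the sources used here, so reads of the 2 genes there cannot be told apart.

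The log2 ratio of Nid2 over Nid1 per kilobase averaged -1.83 ± 0.16 (SD, n = 9) in germ-free and -2.07 ± 0.32 (SD, n = 12) in conventional libraries. It ran from -2.09 to -1.63 in germ-free and from -2.65 to -1.53 in conventional libraries, so the germ-free range lay inside the conventional one. The difference of 0.25 passed (2-sided exact permutation p = 0.0211, adjusted p = 0.0422). It was no longer called when 1 of 14 libraries was left out, 6 of them germ-free and 8 conventional (exact permutation adjusted p at most 0.110), and in libraries numbered 2 alone the difference was 0.12 (exact permutation adjusted p = 0.583).

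Perlecan, the large heparan sulfate proteoglycan encoded by Hspg2, had the lowest fold change of the 10 genes. Hspg2 stood at 194, 279 and 744 CPM (lowest, median and highest) in germ-free libraries and at 458, 561 and 984 CPM in conventional ones. Of the germ-free libraries 8 lay between 194 and 303 CPM, below every conventional one, and ZT10, replicate 2, lay apart from them at 744 CPM. The log2 fold change was -1.02 ± 0.17 (SE, edgeR adjusted p = 7.57e-04), and the germ-free mean was 0.494 of the conventional one by the fit. Without the library that lay apart, it was -1.18 ± 0.13 (edgeR adjusted p = 1.41e-05). On GRCm38, Hspg2 occupies positions 137468769 to 137570630 of the plus strand of chromosome 4, and its exons add up to 14307 bases, the longest of the 10 genes.

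The promoter of perlecan is shown because this gene led the differences, with GC boxes in capitals as above.
Hspg2 promoter, chr4:137468553-137468852, plus strand: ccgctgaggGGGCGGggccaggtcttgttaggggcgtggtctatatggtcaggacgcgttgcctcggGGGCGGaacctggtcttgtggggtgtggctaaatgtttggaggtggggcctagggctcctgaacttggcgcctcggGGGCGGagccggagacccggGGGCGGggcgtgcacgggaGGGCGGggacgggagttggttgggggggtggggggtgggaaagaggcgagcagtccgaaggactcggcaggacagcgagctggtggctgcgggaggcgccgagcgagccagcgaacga
It held 5 GC boxes, all on the plus strand, from position -241 to -68 relative to the start, at 70.3% GC.

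Sparc had the highest level of the 10 genes. Its lowest, median and highest values were 1260.0, 1465 and 2173 CPM in germ-free and 1645, 1943 and 2738 CPM in conventional libraries. All germ-free libraries except ZT02, replicate 2, lay below every conventional one. Its log2 fold change was -0.39 ± 0.09 (SE, edgeR adjusted p = 0.00606), and -0.48 ± 0.08 without that library (edgeR adjusted p = 5.82e-04). Among the germ-free libraries, the same one had the highest sums of mesothelial (611 CPM), macrophage (972 CPM) and fibroblast and progenitor markers (2524 CPM). The part of these cells in the Sparc value was not tested.

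Per kilobase of exon, the order of levels in germ-free mice was Sparc at 455, Nid1 at 115 and Lamc1 at 49.8 CPM per kilobase, then Lama4 at 42.0, Lamb1 at 34.5, Lamb2 at 33.7, Nid2 at 32.2, Hspg2 at 21.9, Lama2 at 18.6 and Lama5 at 4.54. In conventional mice Sparc at 599, Nid1 at 155 and Lamc1 at 62.5 also led, followed by Lamb2 at 46.4, Lama4 at 44.3, Hspg2 at 43.4, Nid2 at 36.8, Lamb1 at 34.7, Lama2 at 21.5 and Lama5 at 4.04. Within libraries, the neighbours Lamb1 and Lamb2, Lamb2 and Nid2, and Hspg2 and Lama2 did not differ beyond 1 SD in germ-free mice. In conventional mice this held for each neighbouring pair from Lamb2 down to Lamb1.

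**Figure D2:**
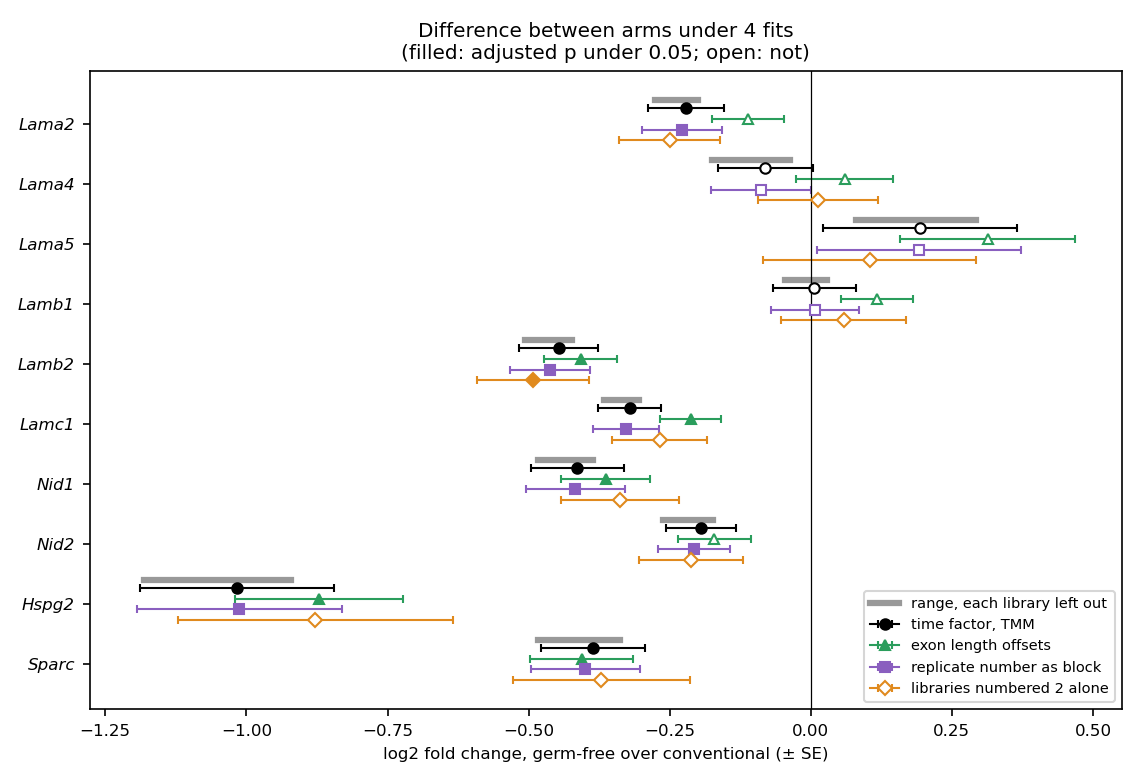
Log2 fold change, germ-free over conventional, of each gene in 4 fits (symbols with SE; filled where the adjusted p was under 0.05), and the range with each library left out in turn (grey bars). Hspg2 lies lowest in every fit, and Lama2 and Nid2 are open symbols with the exon length offset.

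Libraries differed in how their read counts related to gene length. In every library, each gene's distance from its own average (log2 CPM) was set against exon length, and Spearman's rho over genes gave that library's trend. It averaged rho -0.14 ± 0.16 (SD, n = 9; range -0.33 to 0.16) in germ-free and 0.12 ± 0.09 (SD, n = 12; range -0.08 to 0.22) in conventional libraries (2-sided exact permutation p = 6.86e-04). Long genes were thus relatively lower in germ-free libraries, and the exon lengths of the 10 genes run from 3367 to 14307 bases. The germ-free library with the highest rho, 0.16, was ZT10, replicate 2, which also had the highest germ-free values of Hspg2, Lamb2, Lamc1, Nid1, Lamb1 and Lama2. Fold changes fell with exon length across 13804 genes (rho = -0.31), and genes are not independent replicates.

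Fitted with an offset that removes each library's smooth trend with exon length, 5 of the 10 genes were lower: Hspg2 (-0.87 ± 0.15), Lamb2 (-0.41 ± 0.06), Sparc (-0.41 ± 0.09), Nid1 (-0.36 ± 0.08) and Lamc1 (-0.21 ± 0.05). In that fit 10.5% of all genes were lower and 15.0% higher in germ-free mice. Sparc has the shortest exon length of the group, 3367 bases. Within arms, log2 CPM of Hspg2 followed the trend with Pearson's r = 0.764 and Spearman's rho = 0.45 in germ-free libraries (n = 9, exact permutation p = 0.0192 and 0.230). In conventional libraries these were 0.685 and 0.762 (n = 12, permutation p = 0.0143 and 0.00560). None of 20 such relations, 10 genes in each arm, passed after adjustment (lowest adjusted p = 0.0827, permutation tests). Without the 2 libraries farthest from the median trend, r of Hspg2 was 0.369 in germ-free and 0.616 in conventional libraries. In germ-free mice those left out included ZT10, replicate 2, with 744 CPM of Hspg2. Leaving them out also narrows the range of the trend, which can lower r, and the change of r was not tested. What the trend contributed beyond these values was not tested.

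**Figure D3:**
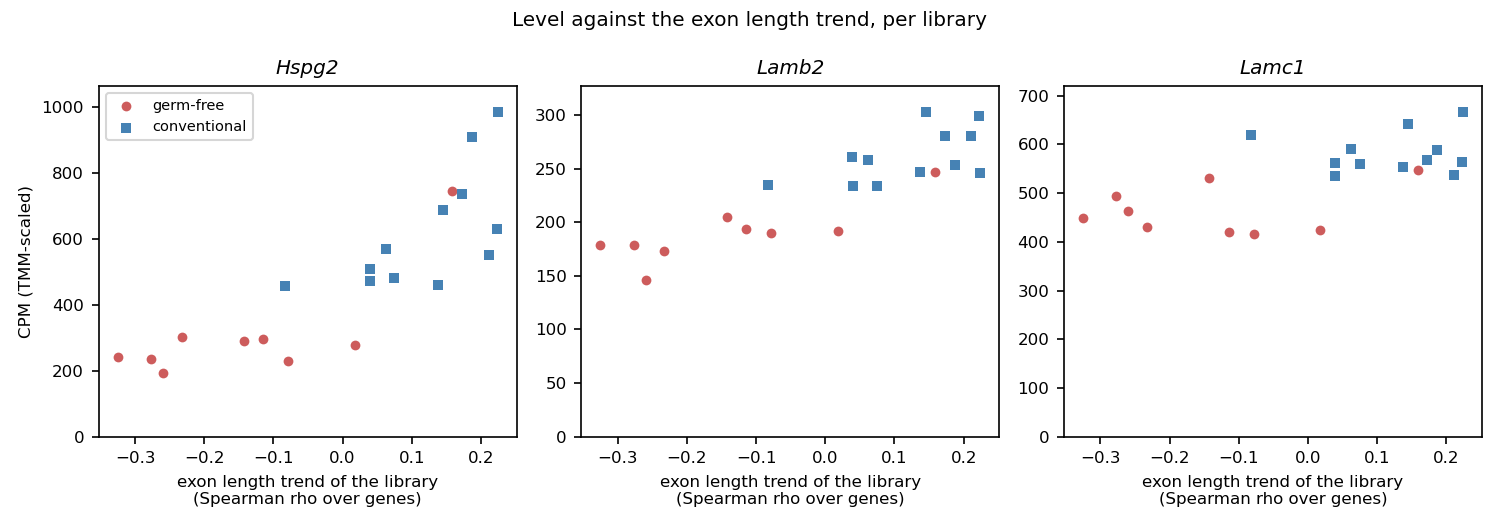
CPM of Hspg2, Lamb2 and Lamc1 in each library against that library's exon length trend (rho over genes), with germ-free libraries as circles (n = 9) and conventional ones as squares (n = 12). The germ-free library at a trend of 0.16 has 744 CPM of Hspg2, while the others lie at or below 303 CPM.

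Calls were lost in subsets of the libraries. Without the 9 libraries above the cut on markers of neighbouring tissues, 5 germ-free and 7 conventional libraries were left. Both arms were then present only at ZT06 and ZT10, so with time as a factor the arm difference rests on those times. By edgeR 0 of the 10 genes passed, and 30 of 18336 genes were lower (0.164%) and 26 higher (0.142%). An unadjusted p under 0.05 was reached by 5 of the 10 genes and by 3600 of the 18336. The log2 fold changes of the 7 genes were all negative there, from -0.87 ± 0.29 for Hspg2 over -0.33 ± 0.11 for Lamc1 and -0.33 ± 0.13 for Lamb2 to -0.18 ± 0.12 for Lama2. In libraries numbered 2 alone, where 2.57% of genes were lower and 2.45% higher, Lamb2 passed (-0.49 ± 0.10) and Hspg2 stood at -0.88 ± 0.24. Restricted to ZT06, ZT10 and ZT22, which both arms hold in duplicate, the fit called 6 of the 10 genes lower, beside 6.44% of all genes lower and 2.96% higher. Libraries numbered 1 include germ-free ones only at ZT06, ZT10 and ZT22. In libraries numbered 1 alone no gene tested passed by edgeR, and DESeq2 was not run. An unadjusted p under 0.05 was reached there by 7 of the 10 genes and by 2562 of 18997 genes, and Hspg2 stood at -1.23 ± 0.16.

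By time of day, Hspg2, Lama2, Lamb2 and Lamc1 had a lower mean in germ-free mice at 6 of 6 times, and Nid1, Nid2 and Sparc at 5 of 6. Hspg2 averaged 290.4, 261, 524, 297, 236 and 212 CPM at ZT02, ZT06, ZT10, ZT14, ZT18 and ZT22 in germ-free mice. In conventional mice it averaged 467, 469, 729.5, 683, 835 and 539 CPM at those times. The difference of the mean log2 CPM, germ-free minus conventional, ran from -0.58 at ZT10 to -1.80 at ZT18, where 1 germ-free library stood against 2 conventional ones. For Sparc it ran from 0.22 at ZT02 to -0.75 at ZT22, and for Nid1 from 0.02 at ZT02 to -0.59 at ZT22.

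No member had a daily rhythm past the threshold. A cosine of period 24 h in edgeR gave 0 of the 10 genes at an adjusted p under 0.05 in germ-free mice, where 4.64% of all genes passed, and 0 of 10 in conventional mice, where 0.813% passed. Members with an unadjusted p under 0.05 were Hspg2 in germ-free mice (edgeR adjusted p = 0.106) and, in conventional mice, Hspg2 (edgeR adjusted p = 0.315) and Nid2 (edgeR adjusted p = 0.179). Over all genes that share was 22.8% in germ-free and 14.1% in conventional mice. The fitted curve of Hspg2 had a log2 amplitude of 0.53 and a peak at 10.4 h in germ-free mice, and an amplitude of 0.42 and a peak at 15.0 h in conventional mice. DESeq2 called Hspg2 in germ-free mice (adjusted p = 0.0221; 11.0% of genes passed there) and no member in conventional mice. Without the germ-free library at ZT10, replicate 2, the edgeR adjusted p in germ-free mice was 0.481.

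The rhythms of the arms were not shown to differ. The test of the difference called 0 of 18334 genes by edgeR, a share of 0%, with 7.72% at an unadjusted p under 0.05 and none of the 10 members among them. DESeq2 called 40 genes and no member. The smallest unadjusted p of a member was that of Hspg2, 0.0675 (edgeR adjusted p = 0.641). With 3 germ-free times at 1 library each, a p that misses the threshold does not show that rhythms were alike.

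**Figure D4:**
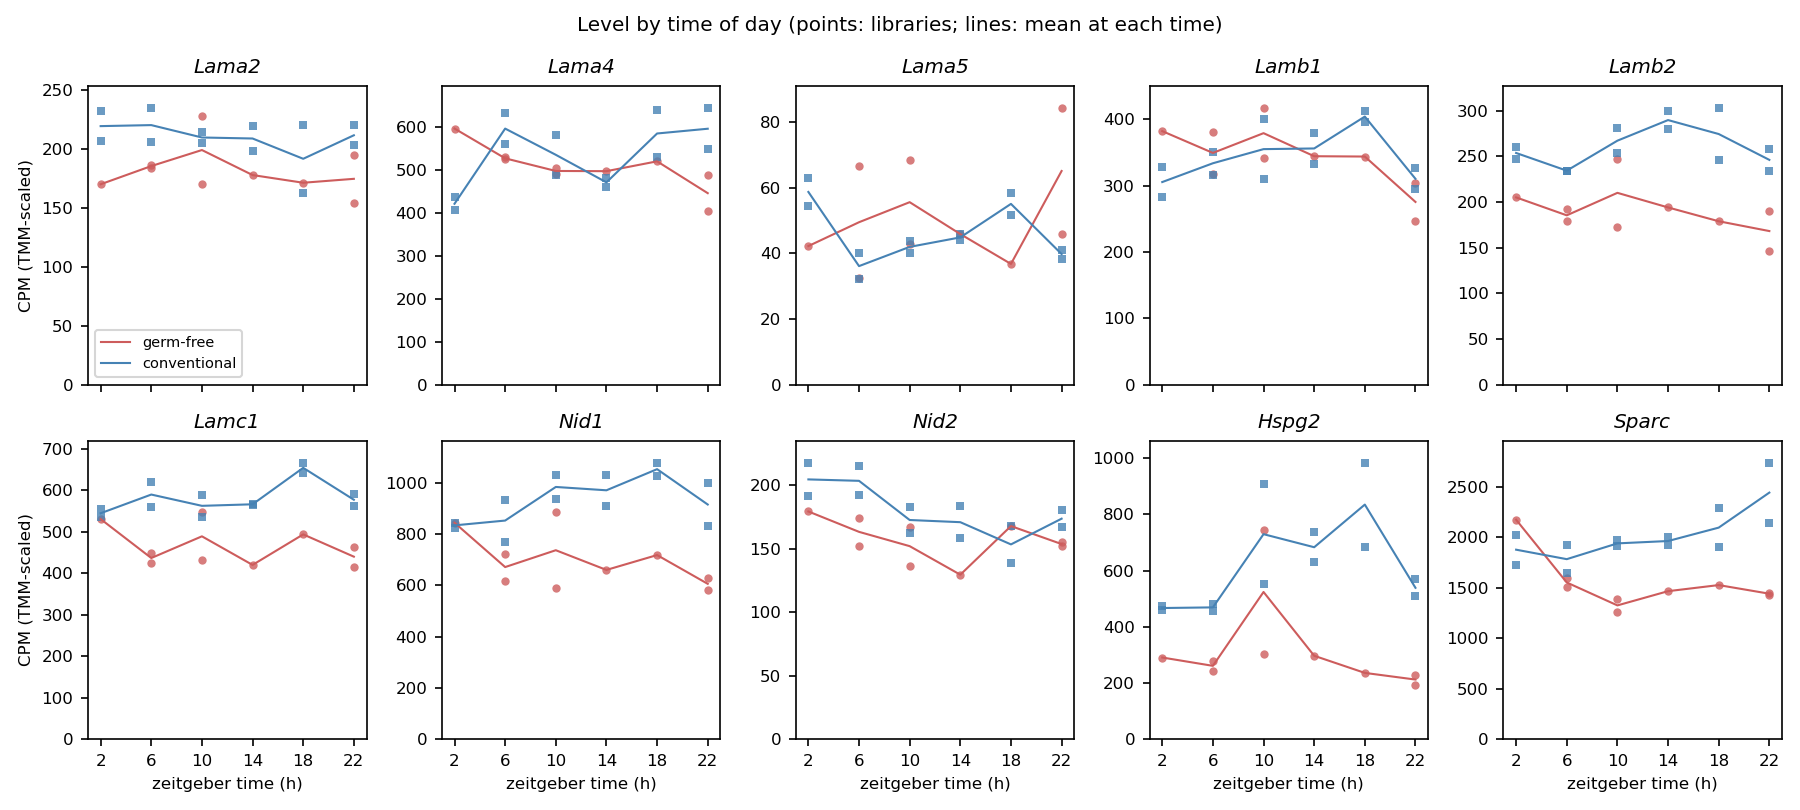
CPM of each gene against zeitgeber time, with germ-free libraries as circles and conventional ones as squares; lines join the mean at each time. Hspg2 in germ-free mice lies below the conventional line at all 6 times, and its highest germ-free point, 744 CPM, stands at 10 h beside a second library at 303 CPM.

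For this and the following lists, fold changes are from the fit without the exon length offset. Over all genes in that fit, 11.6% were lower and 15.3% higher in germ-free mice. Other laminin chains averaged at most 32.6 CPM in either arm. Of these 5 chains, 3 were lower and 1 higher in germ-free fat, with a list median log2 fold change of -0.32. Lamb3, a chain of epithelial laminin-332, was lower (-0.55 ± 0.08, edgeR adjusted p = 3.35e-04), at 2.65 ± 0.42 CPM in germ-free and 3.97 ± 0.58 CPM in conventional mice. Lamc3 was lower (-0.32 ± 0.09), at 26.7 ± 5.03 CPM in germ-free and 32.6 ± 5.13 CPM in conventional mice. Lama1, an alpha chain best known from the embryo, was higher (0.83 ± 0.18, edgeR adjusted p = 0.00313), at 12.3 ± 4.77 CPM in germ-free and 6.50 ± 1.11 CPM in conventional mice. It made up 1.92% ± 0.72 of alpha chain reads per kilobase in germ-free and 0.965% ± 0.207 in conventional mice.

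Of 8 basement membrane collagens, 4 were lower and 0 higher, with a median of -0.20. Col18a1, which carries endostatin, stood at 134 ± 32.3 CPM in germ-free and 187 ± 20.8 CPM in conventional mice (-0.46 ± 0.11, edgeR adjusted p = 0.00548). The type IV chains Col4a5 (-0.37 ± 0.11) and Col4a1 (-0.25 ± 0.08, edgeR adjusted p = 0.0197) were lower too, and Col4a1 averaged 1218 ± 208 CPM in germ-free and 1459 ± 131 CPM in conventional mice. Col15a1, with a value of -0.01 ± 0.10, and Col4a6, with -0.19 ± 0.09, did not pass.

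Of 20 tested genes for other basement membrane proteins and relatives of Sparc, 2 were lower, 1 was higher and 17 did not pass, with a median of -0.13. Sparcl1, the closest relative of Sparc, was higher in germ-free fat (0.40 ± 0.06, edgeR adjusted p = 3.37e-04), at 336 ± 30.3 CPM in germ-free and 253 ± 24.8 CPM in conventional mice, opposite in sign to Sparc. Pxdn, peroxidasin, which crosslinks type IV collagen, was lower (-0.45 ± 0.12), as was Smoc1 (-0.40 ± 0.10). Fstl1 (-0.14 ± 0.13) and Fbln2 (-0.11 ± 0.14) did not pass.

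Of 21 receptor genes for laminins and matrix and their linkers to the cytoskeleton, 4 were lower, 2 higher and 15 did not pass, with a median of -0.02. The integrin alpha 6 gene Itga6, a laminin receptor, was higher (0.29 ± 0.05, edgeR adjusted p = 0.00113). Itgb4, the beta chain that pairs with it in epithelia, was lower (-0.69 ± 0.13), at 5.86 ± 1.37 CPM in germ-free and 9.12 ± 1.64 CPM in conventional mice. The integrin-linked adaptor Parva was lower (-0.34 ± 0.09). Utrn, utrophin (-0.02 ± 0.06), and Itgb1, the common integrin beta chain (-0.01 ± 0.05), did not pass.

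Of 20 genes that make or edit heparan sulfate, the sugar chain of perlecan, 5 were lower, 2 higher and 13 did not pass. Their median was -0.02, and 11.6% of all genes were lower and 15.3% higher. Glce, the epimerase (0.18 ± 0.03, edgeR adjusted p = 6.07e-04), and B3galt6, which builds the linker (0.29 ± 0.07), were higher. Sulf2, which removes sulfates at the cell surface, was lower (-0.27 ± 0.08). Extl3 (0.04 ± 0.06) and Fam20b (0.08 ± 0.04) did not pass. Of 8 heparan sulfate proteoglycans of the cell surface, 3 were lower and 1 higher, with a median of -0.07: the glypican Gpc6 (-0.92 ± 0.13, edgeR adjusted p = 1.94e-04) and the syndecan Sdc3 (-0.33 ± 0.08) were among the lower ones, and Gpc3 was the higher one (0.39 ± 0.12). Sdc4 (-0.05 ± 0.11) and Sdc2 (0.11 ± 0.05) did not pass.

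Of 14 proteases that cut basement membrane or related matrix, 4 were lower, 1 was higher and 9 did not pass, with a median of -0.18. Adamts5, a proteoglycan-cleaving protease, stood at 289.6 ± 87.8 CPM in germ-free and 531 ± 85.3 CPM in conventional mice (-0.88 ± 0.14, edgeR adjusted p = 6.16e-04). The membrane protease Mmp14 (-0.48 ± 0.08) and the secreted serine protease Htra1 (-0.45 ± 0.07) were lower too. Ctsb (-0.03 ± 0.08) and Ctsl (-0.11 ± 0.07), lysosomal cathepsins, did not pass.

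**Figure D5:**
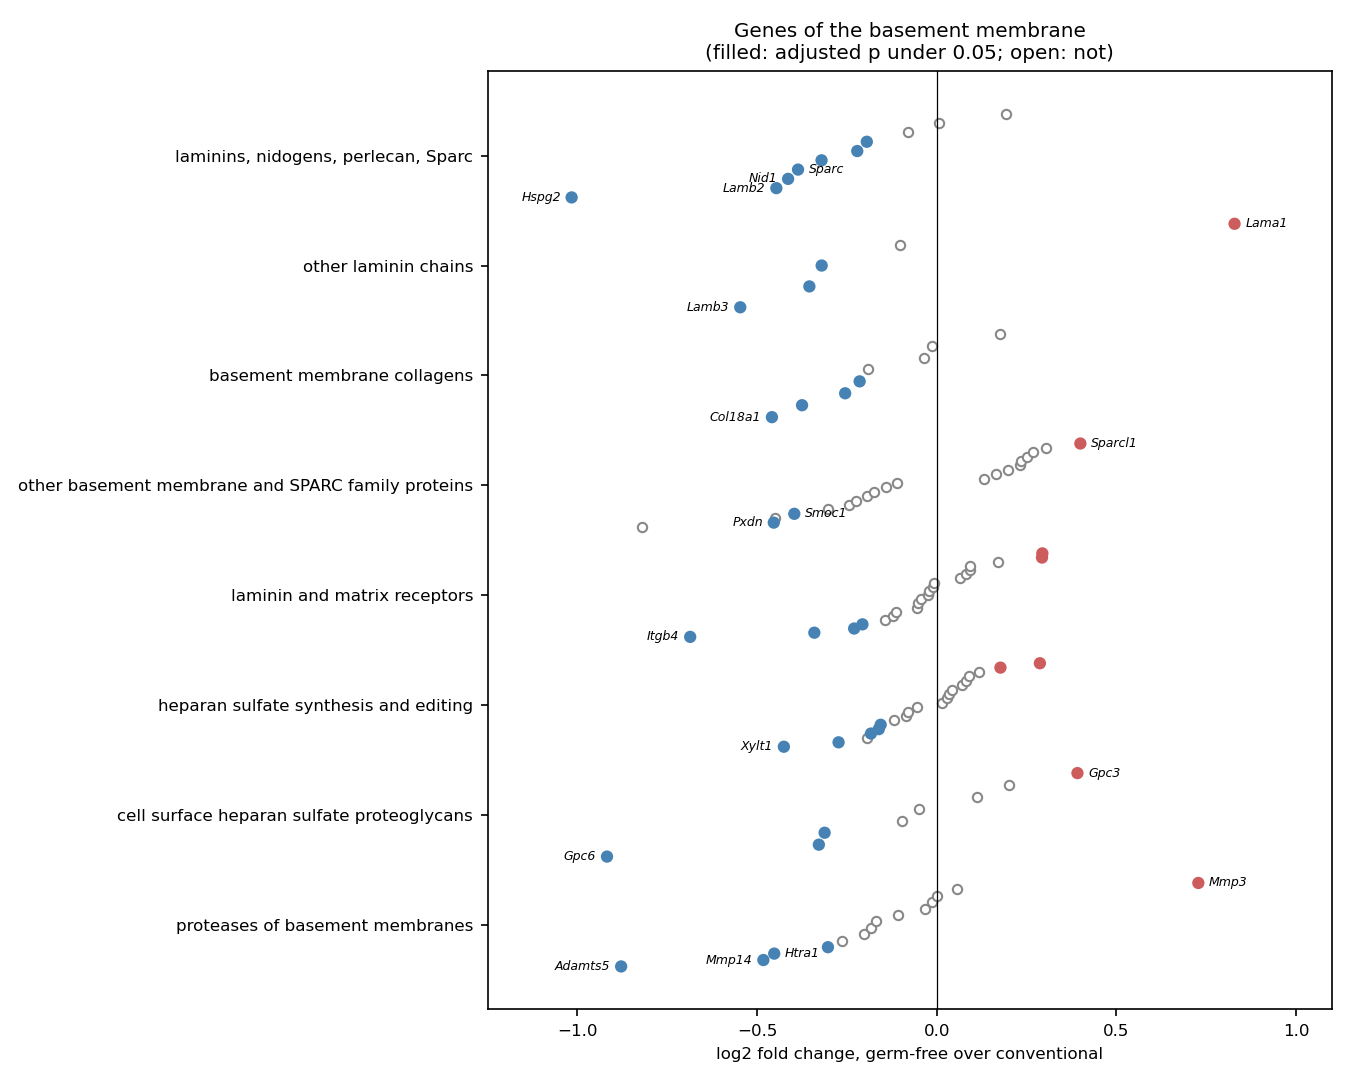
Log2 fold change, germ-free over conventional, of every tested gene in the 10-gene group (top row) and in 7 lists of related genes; filled points had an adjusted p under 0.05 (left of 0 lower, right of 0 higher in germ-free fat). Hspg2 at -1.02 is the leftmost point, and Lama1 at 0.83 the rightmost.

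Across the 21 libraries, the genes outside the group whose log2 CPM was most like the mean standardised level of the 10 genes were Tnxb, tenascin-X (Pearson's r = 0.947), Sepn1, a selenoprotein of the endoplasmic reticulum (0.940), Sod3, the extracellular superoxide dismutase (0.935), Sec31a, a coat protein of vesicles that leave the endoplasmic reticulum (0.930), and C1qtnf1 (0.928). With arm means removed, they were Tnxb (0.859), Sepn1 (0.843), Sod3 (0.842), Cpne2 (0.837) and Sec31a (0.818). Placeholder gene models and pseudogenes were skipped. The members, which are part of that mean, had an r with it from 0.009 for Lama5 to 0.928 for Nid1. With arm means removed, this ran from 0.134 for Nid2 to 0.852 for Nid1. The libraries differ in arm, depth and exon length trend, and all genes come from the same libraries, so these values are a description. Among the members with arm means removed, r was 0.81 for Lamc1 with Nid1, 0.78 for Lamb1 with Hspg2, 0.70 for Nid1 with Hspg2 and -0.51 for Lama4 with Lama5.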

How the data were processed

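Total RNA of epididymal fat was sequenced, per the labels' protocols, after bead mill disruption, column purification and a stranded kit with ribosomal RNA removal. The submitters' processing notes name STAR 2.4.0i and mm10. How reads were counted (program, strand setting, annotation) is not given in the sources used here. Raw exon counts of 38087 genes in 21 libraries, as the authors deposited them beside the exon lengths, were the input. GENCODE M21 (GRCm38) gave positions for 36308 genes.

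In R 4.3.3 with edgeR 4.0.16, filterByExpr kept 18334 genes, libraries were scaled by TMM, and arms were compared by the quasi-likelihood F test and time entered as a factor of 6 levels. Rhythms were fitted as 24 h cosine and sine terms per arm, over 2 degrees of freedom. P-values were adjusted by Benjamini-Hochberg over all genes kept. Ratios (0.5 added to each count) were tested by exact permutation within times. Python 3.11.15 drew the figures. The edgeR tests of the arm difference and of the rhythm in each arm were run on simulated counts that held no exon length trend. The other tests were not simulated.

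The 10 genes, the lists and the tests were chosen with earlier results of these data known, so list counts are descriptions and not independent evidence. Named from each list were up to 3 genes with the smallest p past the threshold and up to 2 of the highest CPM that did not pass, besides the 5 genes most like the group in each of 2 sets; other names were chosen after their values were seen, and a gene of these lists is not reported here. Alternatives were RLE scaling, no filter, DESeq2 1.42.0, the replicate number as a block, exon length offsets, each library left out, and subsets of libraries; exon length with GC offsets, and leaving out 2 germ-free libraries together, were added after seeing the data.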

Additional observations from a re-analysis of the deposited data

Results flagged for a closer look

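Among germ-free libraries, 14 sets of values (the 10 genes and the 4 ratios) were examined for a library far from the other 8, and 2 had one; such a check marks about 1 in 20 sets by chance, and these sets share libraries and genes. Hspg2 stood at 744 CPM in the germ-free library at ZT10, replicate 2, and between 194 and 303 CPM in the other germ-free libraries. That library also had the highest germ-free exon length trend, rho 0.16, and the other germ-free library at ZT10 had 303 CPM of Hspg2 and a trend of -0.23. Sparc stood at 2173 CPM in the germ-free library at ZT02, replicate 2, and between 1260.0 and 1595 CPM in the other germ-free libraries. That library is the only germ-free one at ZT02.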

How the results depend on the processing

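No call of the 10 genes or 4 ratios changed direction under any alternative run. Lower calls among the 10 genes numbered 7 with RLE scaling, DESeq2 and the replicate block, and 6 with no filter on low counts (Nid2 edgeR adjusted p = 0.0505). They numbered 6 at the 3 times that have 2 libraries per arm, 5 with exon length or exon length and GC offsets, and 1 in libraries numbered 2 alone. There were 0 without the 9 libraries above the cut on other-tissue markers, where both arms were left only at ZT06 and ZT10. Libraries numbered 1 alone also gave 0. Leaving out each library in turn gave 6 to 7. With RLE scaling 2218 of 18334 genes were lower and 2611 higher in germ-free mice. With exon length and GC offsets, an unadjusted p under 0.05 by edgeR was reached by 7 of the 10 genes and by 6830 of 18334. Over all genes, lower and higher calls numbered 30 and 26 without those 9 libraries, 466 and 445 in libraries numbered 2, 0 and 0 by edgeR in those numbered 1 (2562 at an unadjusted p under 0.05), and 1173 and 539 at the 3 times with 2 libraries per arm; each library left out gave 1794 to 2437 lower and 1585 to 2929 higher. The cause of these changes was not tested. The differences between libraries numbered 1 and 2 correlated between arms, over genes, with r = 0.505, 0.149 and -0.290 at ZT06, ZT10 and ZT22. Each value rests on 1 pair of libraries per arm, so whether the numbers pair the libraries cannot be told. With the replicate number as a block 1991 genes were lower and 2636 higher, and no call of the 10 genes changed. Rhythmic genes numbered 2020 with DESeq2 and 385 to 1099 with each library left out in germ-free mice, with 1 member (Hspg2) by DESeq2, and 781 and 54 to 262 in conventional mice; the rhythm difference gave 40 genes with DESeq2, 22 without the 9 libraries and 0 to 3 with each library left out, and its cause was not tested. The difference of the log2 ratio Nid2 over Nid1 was 0.19 to 0.29 with each library left out and 0.12 in libraries numbered 2, where that of Lamb2 over Lamb1 was -0.55 and passed no threshold after adjustment. At these depths every one of the 10 genes had at least 1010 reads in every library, and 3 times have 1 germ-free library.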
